A study of Mus musculus with 4 samples.

Results

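Cirbp and Rbm3 encode the cold-inducible RNA-binding proteins CIRP and RBM3. These 2 genes, of 28692 in the deposited gene table and of 15581 with at least 1 transcript count in the analysed cells, were examined in single microglia and other myeloid cells of the mouse brain. The genes were chosen by symbol and were selected on measured values, since earlier work on the same files had shown their levels to differ between libraries. Their levels, their detection and their correlations are therefore given as a description, with no test.

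The data were 4 libraries of the 10x Genomics 3′ kind, each from 1 male C57BL/6J mouse at postnatal day 90, and together they made up 1 group of cold Dounce samples given PBS (n = 4). The labels name no genetic change, and every mouse received phosphate-buffered saline (PBS) by the tail vein, 24 hours before sacrifice according to the labels. The methods of the study give a different interval, so the time from injection is uncertain. Cortex and hippocampus were homogenised mechanically on ice, without digestion by enzymes, and live cells positive for CD45 and CD11b, the surface proteins of brain myeloid cells, were sorted. Per its methods, the sorter clogged on the final mouse, whose cells were returned to ice and later sorted afresh, so that they were brought to room temperature on both occasions. The study calls this mouse Sample 4, but the sample numbers in the labels run differently and the replicate numbers used here follow accession order, so it was not tied to a library from the labels. With 1 group there was no treated or untreated contrast, and the numbers 1 to 4 name the libraries and carry no order.

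Cooling by a few degrees raises the transcripts and proteins of both genes in most mammalian cells, whereas the heat shock genes, under the transcription factor HSF1, respond to warming. Both proteins bind RNA through 1 RNA recognition motif at the amino end, followed by an arginine- and glycine-rich tail, and act on the stability, translation, splicing and polyadenylation of transcripts. RBM3 is known for the protection of synapses in cooled mice, and CIRP that leaves the cell is known as a danger signal that myeloid cells sense through TLR4 with its partner MD-2, and through TREM1. In the circadian clock, the daily rhythm of body temperature drives Cirbp, and CIRP in turn acts on the transcript of Clock.

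After cells with fewer than 400 genes or more than 10% mitochondrial counts were removed, 13002 of 13138 cells remained, with 2576 to 3692 in each library. The sums over these cells were 5841671 to 11267195 unique molecular identifiers (UMIs, the counted transcript molecules), and the median cell held 1905 to 2936. Pairs of libraries shared 6 to 21 cell barcodes, and all pairs differed by more than sampling noise over genes, with a chi-square of 4.00 to 8.54 per degree of freedom. The label of microglia held in each library, where the microglial markers P2ry12, Tmem119 and Siglech stood at 5168 to 5661, 2877 to 3069.5 and 1463 to 1522 counts per 1000000 UMIs (CPM). Neuronal markers summed to 1.54 to 2.00 CPM, T and NK cell markers to at most 0.283 CPM, and neutrophil markers had 0 UMIs in every library, which allows at most 0.514 CPM in the shallowest. Nothing in the labels said more than that each library was a separate animal, so the spread between libraries joins that of mice and that of handling.

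Cirbp (ENSMUSG00000045193) lies on the plus strand of chromosome 10, from 80165985 to 80172786 on GRCm38, and its main transcript of 7 exons carries 172 codons. Rbm3 (ENSMUSG00000031167) lies on the minus strand of chromosome X, from 8138975 to 8145880, and its main transcript of 7 exons carries 154 codons. The 2 genes are related, and the following coding stretches show how closely, because a 3′ count can divide 2 genes only where their sequences differ. Both cover codons 25 to 54, within the RNA recognition motif, the 90 coding bases where the main transcripts are most alike (GENCODE, GRCm38). Capitals mark the bases at which the 2 differ.
Cirbp: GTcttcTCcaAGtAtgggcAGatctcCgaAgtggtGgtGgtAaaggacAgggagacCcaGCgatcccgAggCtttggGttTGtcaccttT
Rbm3: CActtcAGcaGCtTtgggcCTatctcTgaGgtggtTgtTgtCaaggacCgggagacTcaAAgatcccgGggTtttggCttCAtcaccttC
In this window 66 of 90 bases were identical. Over all pairs of the 7 annotated Cirbp and 11 annotated Rbm3 transcripts, the longest identical run was 11 bases, and within the last 300 bases of the main transcripts, where 3′ reads gather, it was 9 bases. Rbm3 shared runs of 50 bases with 4 processed pseudogenes, among them Rbm3-ps, that were not rows of the gene table, with the sense-intronic gene Gm42463 and with a retained intron of Srsf3, while Cirbp shared such a run with no other annotated gene. How reads from those copies were assigned was not tested, so Rbm3 counts are the less certain of the 2. The antisense gene Rbm3os overlaps the start of Rbm3 on the opposite strand, and it held 1, 9, 3 and 4 UMIs in replicates 1 to 4.

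The stretch before the start of the main Cirbp transcript is shown because cold and the general factor Sp1 are known to act on it. It spans chr10:80167589-80167777 on the plus strand (RefSeq, GRCm38.p6), an intron of a longer Cirbp transcript, and of the 2 members Cirbp was the 1 with an entry in the promoter table. Capitals mark matches to TCCCCGCC, the core of the mild cold responsive element, and to GGGCGG, the GC box of Sp1, on either strand.
Cirbp: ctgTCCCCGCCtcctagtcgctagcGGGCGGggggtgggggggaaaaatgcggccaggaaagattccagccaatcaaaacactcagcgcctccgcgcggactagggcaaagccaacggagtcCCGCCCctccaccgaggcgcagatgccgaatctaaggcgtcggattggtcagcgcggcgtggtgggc
The cold element matched once, 186 bases before the transcript, and the GC box matched at 164 and 67 bases before it, with no overlap between matches. In the first 189 bases of 32851 promoters, the cold element was found in 2.86% and the GC box in 22.6%. The heat shock element GAANNTTC and the E-box CACGTG, found in 4.89% and 3.99% of these windows, had no match here. A match is a string of letters and not a measured site.

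Both genes were of moderate abundance, and their levels differed between libraries far more than those of most genes. Cirbp stood at 61.4 CPM in replicate 1 (433 UMIs, 95% exact Poisson interval 55.7 to 67.4), 68.5 CPM in replicate 2 (772 UMIs, 63.8 to 73.5), 118 CPM in replicate 3 (689 UMIs, 109 to 127) and 138 CPM in replicate 4 (1246 UMIs, 131 to 146). Rbm3 stood at 75.1 CPM in replicate 1 (530 UMIs, 68.9 to 81.8), 72.6 CPM in replicate 2 (818 UMIs, 67.7 to 77.8), 127 CPM in replicate 3 (741 UMIs, 118 to 136) and 143 CPM in replicate 4 (1288 UMIs, 135 to 151). Replicates 3 and 4 were thus higher for both genes, and no interval of replicates 1 and 2 reached one of replicates 3 and 4.

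The mean was 96.6 ± 37.6 CPM for Cirbp and 104 ± 35.9 CPM for Rbm3 (SD, n = 4), ranks 1635 and 1483 among the 15581 genes with a count. The highest library exceeded the lowest 2.26-fold for Cirbp and 1.97-fold for Rbm3. Intervals here cover counting error only. Within the order of levels, replicates 1 and 2 did not differ beyond counting error for either gene, with a ratio of 1.12 (0.991 to 1.26) for Cirbp and 1.03 (0.926 to 1.16) for Rbm3. The step to replicate 3 was 1.72-fold for Cirbp (1.55 to 1.91) and 1.69-fold for Rbm3 (1.51 to 1.89). From replicate 3 to replicate 4 it was 1.17-fold (1.07 to 1.29) and 1.13-fold (1.03 to 1.24), and for Rbm3 the intervals of those 2 libraries overlapped. The order was the same with TMM, with DESeq2 size factors and with totals free of mitochondrial genes.

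The SD of log2(CPM + 1) over the 4 libraries was 0.57 for Cirbp and 0.50 for Rbm3. It was larger than in 99.7% and 99.4% of the 7656 genes that averaged at least 10 CPM, whose median SD was 0.11, and 25 and 45 of those genes varied more. The largest gap of an outermost library to its neighbour was 0.198 of the whole range for Cirbp and 0.178 for Rbm3. This ratio is given without a test for the members. For the gene lists described further on, Dixon's range test (two-sided, at the 95% level) asks by the same ratio whether 1 library stands apart from the other 3, and it did so in 354 of the 7656 genes, or 4.62%.

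**Figure D1:**
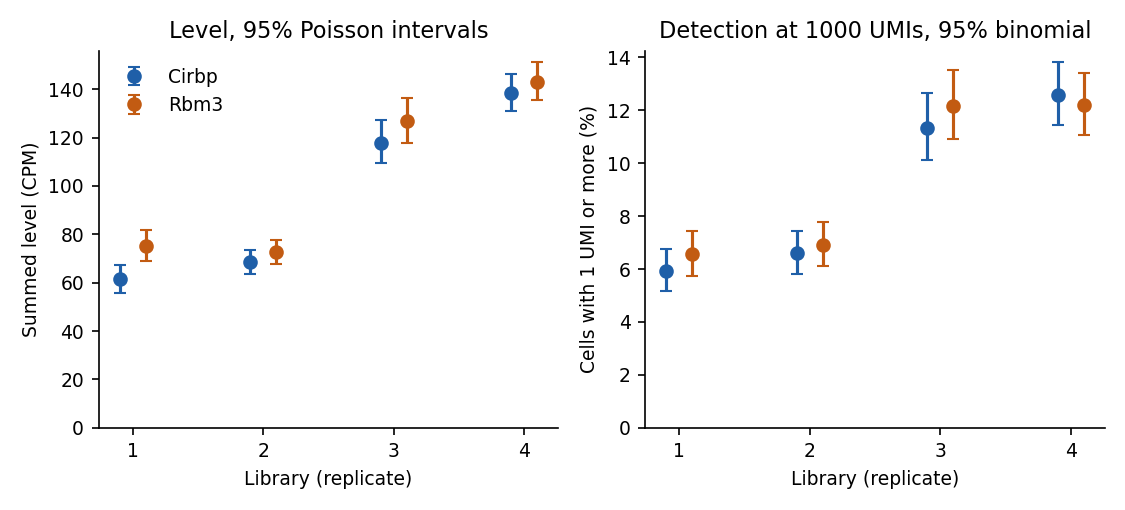
Left, the level of Cirbp (blue) and Rbm3 (orange) in CPM of the summed counts of each library, with 95% exact Poisson intervals. Right, the percentage of cells with at least 1 UMI after every cell was thinned to 1000 UMIs, with 95% exact binomial intervals. Both genes sit lower in replicates 1 and 2 (61.4 to 75.1 CPM) than in replicates 3 and 4 (118 to 143 CPM).

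The 2 genes kept nearly the same proportion to each other. The ratio of Rbm3 to Cirbp UMIs was 1.22 in replicate 1 (95% exact interval 1.08 to 1.39), 1.06 in replicate 2 (0.959 to 1.17), 1.08 in replicate 3 (0.968 to 1.19) and 1.03 in replicate 4 (0.956 to 1.12). Its mean was 1.10 ± 0.0856 (SD, n = 4), and replicate 1 was the library where its interval lay above 1. These are counts of transcript ends, so they need no division by length.

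At an equal depth of 1000 UMIs per cell, which 12737 cells reached and 265 did not, both genes were found in about the same share of cells. Cirbp was detected in 5.92%, 6.60%, 11.3% and 12.6% of the cells of replicates 1 to 4, from 207 of 3495, 242 of 3669, 282 of 2491 and 388 of 3082 cells. Rbm3 was detected in 6.55%, 6.92%, 12.2% and 12.2%, from 229, 254, 303 and 376 of the same cells. Cirbp had the same order of libraries as in CPM. For Rbm3, replicates 3 and 4 were level, and replicate 2 had a slightly higher share than replicate 1, where the CPM had the reverse, each within counting error. Before thinning, the shares were 11.5%, 19.0%, 23.1% and 31.6% for Cirbp and 13.4%, 18.9%, 24.4% and 32.4% for Rbm3, and the distance between replicates 1 and 2 then included that of their depth.

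A neuronal transcript that these sorted cells should lack gives a scale for stray RNA. Snap25, a synaptic protein gene, was found at the same depth in 0.143%, 0.0818%, 0.0401% and 0.0649% of cells, and Cldn5, of endothelial tight junctions, in 0 cells of every library, which at 2491 cells allows up to 0.148%. Empty droplets were not analysed here, so the share of free Cirbp or Rbm3 RNA was not tested.

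The next question was whether the higher levels came from all cells or from a subset. If each cell of a library held the same proportion of a transcript, the numbers of cells with 0, 1, 2 or more UMIs would follow from depth and the library's level alone by a Poisson law. Cirbp counts lay within counting error of this in each library, and Rbm3 counts did so except in the highest class of replicates 2 and 4. In replicate 4, 788 cells held 1 Cirbp UMI, where 811 were expected, 170 held 2, where 170.1 were expected, and 39 held 3 or more, where 30.2 were expected. In replicate 1, 391 cells held 1 Cirbp UMI against 379.5 expected, 21 held 2 against 24.8, and none held more, against 1.25 expected. For Rbm3, cells with 3 or more UMIs numbered 2, 14, 14 and 46 in replicates 1 to 4, where 2.23, 7.54, 11.02 and 32.9 were expected. The ratio was 1.86 in replicate 2 (95% exact Poisson interval 1.02 to 3.12) and 1.397 in replicate 4 (1.02 to 1.86), both above 1, and the intervals of replicates 1 and 3 held 1. In replicates 2 and 4 more cells than expected thus held at least 3 Rbm3 UMIs.

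Cells with at least 2 Cirbp UMIs numbered 0.805 times the expectation in replicate 1 (95% interval 0.499 to 1.23), 0.886 times in replicate 2 (0.686 to 1.12), 1.02 times in replicate 3 (0.819 to 1.27) and 1.04 times in replicate 4 (0.907 to 1.19). For Rbm3 the ratios were 1.26 (0.926 to 1.66), 1.20 (0.978 to 1.46), 1.03 (0.833 to 1.25) and 1.01 (0.879 to 1.15). All 8 of these intervals held 1. No cell had more than 4 Cirbp or 6 Rbm3 UMIs. At 1000 UMIs the variance of the counts was 0.973 to 1.05 times the mean for Cirbp and 0.985 to 1.06 times for Rbm3, where a Poisson law gives 1. At this depth a small group of cells with a moderately higher level may not be detectable.

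**Figure D2:**
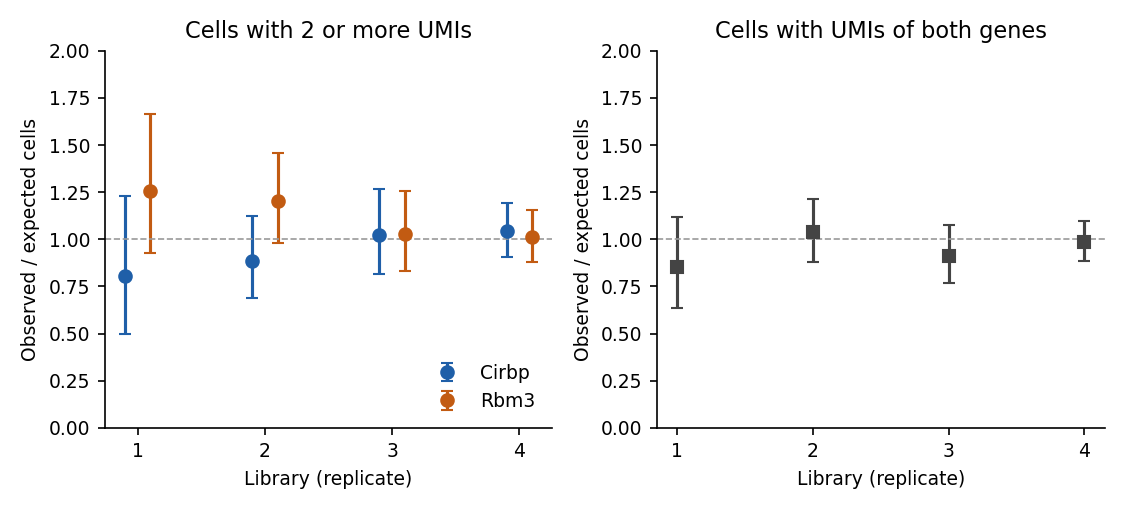
Left, cells with 2 or more UMIs of Cirbp (blue) or Rbm3 (orange), as a ratio of the observed number to the number expected when all cells of a library share 1 level, for each library. Right, the same ratio for cells that hold UMIs of both genes. Bars are 95% exact Poisson intervals of the observed number, the dashed line marks 1, and every interval includes it.

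Cells were next divided, within each library, into tertiles of 6 measures: UMIs per cell, mitochondrial share, and, at 1000 UMIs, the counts of ribosomal protein genes, of the exAM list (25 genes that mark ex vivo activated microglia), of 15 HSF1 targets and of the microglial markers. In all 18 tertiles both members were highest in replicate 4. Cirbp ranged from 55.1 to 67.1 CPM over the tertiles of replicate 1, from 61.8 to 74.0 CPM in replicate 2, from 103 to 138 CPM in replicate 3 and from 127 to 149 CPM in replicate 4. Rbm3 ranged from 69.9 to 83.7, from 59.0 to 78.6, from 106 to 147 and from 120.5 to 163 CPM in the same libraries. No tertile of replicates 1 or 2 reached the lowest tertile of replicate 3 or 4, so the distance between libraries was present in cells of each depth and each class.

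Within libraries the 2 genes did not go alike over the tertiles of ribosomal protein counts. Rbm3 was higher where ribosomal protein transcripts were abundant, at 69.9, 63.6, 106 and 120.5 CPM in the lowest tertile of replicates 1 to 4 and 82.8, 74.7, 147 and 154 CPM in the highest. The highest tertile exceeded the lowest in 4 of 4 libraries, and the 95% intervals were separate in replicates 3 and 4. Cirbp did not share this direction, with 59.1, 61.8, 122 and 149 CPM in the lowest tertile and 58.9, 72.0, 110 and 127 CPM in the highest.

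Depth divided the members as well. From the shallowest to the deepest tertile of cells, Cirbp went from 59.4 to 61.3 CPM in replicate 1, from 74.0 to 62.3 in replicate 2, from 138 to 103 in replicate 3 and from 146 to 135 in replicate 4. Rbm3 went from 72.9 to 70.8, from 59.0 to 76.8, from 116 to 134 and from 123 to 163 CPM. In replicates 2 to 4 the deepest cells had the lower Cirbp and the higher Rbm3 value, and in replicate 1 the intervals overlapped for both. The intervals of the shallowest and deepest tertiles were separate for Cirbp in replicate 3 and for Rbm3 in replicates 2 and 4. Depth depends on cell size and on capture alike, and their parts cannot be told apart here.

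A sort for CD45 and CD11b also takes macrophages and monocytes from the borders of the brain. Cells with at least 3 UMIs of macrophage (Mrc1, Pf4, Cd163, Lyve1, F13a1, Cbr2, Ms4a7, Stab1) or monocyte (Ly6c2, Ccr2, Plac8, Chil3, S100a4) markers numbered 88, 160, 67 and 148. Of these, 61, 115, 45 and 73 met the limit by Stab1 alone, which microglia also express. Rbm3 stood at 88.4 CPM in these cells in replicate 1 (21 UMIs), 89.1 in replicate 2 (57 UMIs), 160 in replicate 3 (38 UMIs) and 212 in replicate 4 (114 UMIs), that is 1.19, 1.24, 1.27 and 1.56 times its level in cells of no marker class. It was higher in 4 of 4 libraries, and in replicate 4 its interval (175 to 255 CPM) lay above that of the other cells (128 to 144 CPM). The marked cells were also deeper, with a median of 2316.5, 3402, 2696 and 3308 UMIs against 1896, 2919.5, 2178 and 2766 in the other cells of replicates 1 to 4, and the part of depth in this difference was not tested. Cirbp stood at 1.32, 0.856, 0.846 and 0.922 times its level in the other cells, with no direction shared by all libraries.

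Cells with at least 3 UMIs of MHC class II genes (Cd74, H2-Aa, H2-Ab1, H2-Eb1, which present antigen) showed the same contrast where they were most numerous. In replicate 4, 87 such cells held 76 Rbm3 UMIs (236 CPM, 186 to 296) and 39 Cirbp UMIs (121 CPM, 86.2 to 166). Rbm3 was 1.73 times and Cirbp 0.870 times the level of the other cells, and the ratio of Rbm3 to Cirbp was 1.95 (1.31 to 2.95) against 0.977 (0.899 to 1.06). In replicate 3, 23 cells held 16 Rbm3 and 2 Cirbp UMIs, and in replicates 1 and 2, 28 and 33 cells held 5 and 9 Rbm3 and 6 and 4 Cirbp UMIs. Of the class II cells, 8, 5, 7 and 30 in replicates 1 to 4 were also in the macrophage or monocyte class. Class II cells were deeper as well, with a median of 2118.5, 3188, 3037 and 3255 UMIs in replicates 1 to 4. Cells of neither class had 1896, 2919.5, 2178 and 2766 UMIs, and the part of depth was not tested. The class II list summed to 414, 224, 419 and 1196 CPM in replicates 1 to 4, so replicate 4 held most of these cells. Without all marked cells, interferon-responsive ones included, Cirbp remained at 60.7, 69.4, 119 and 139 CPM and Rbm3 at 74.4, 71.8, 125 and 136 CPM, so the order of the libraries was the same.

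**Figure D3:**
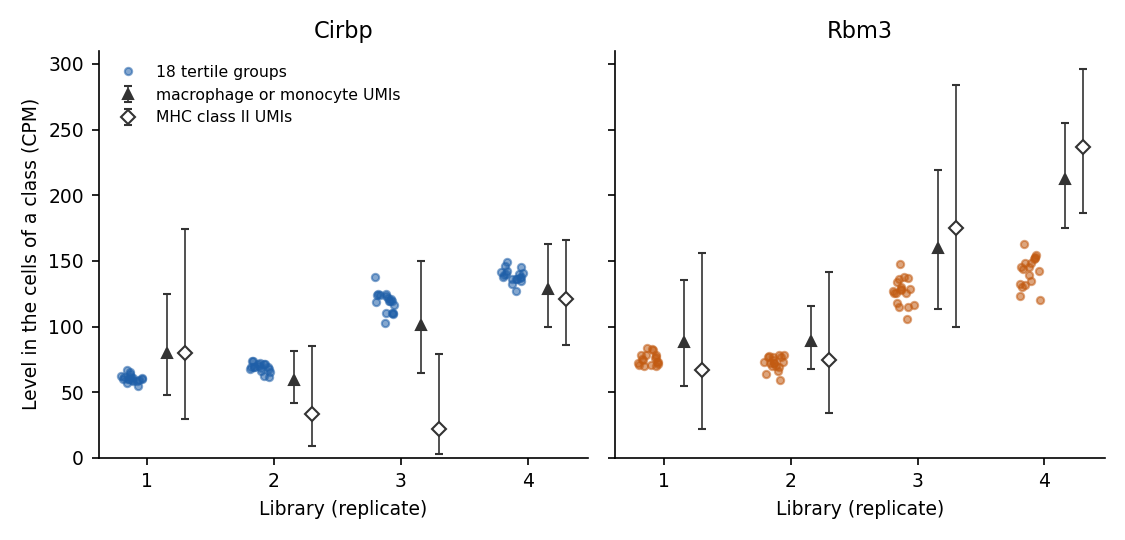
Level of Cirbp (left) and Rbm3 (right) in CPM within classes of cells of each library. Coloured points are the 18 tertile groups of cells, triangles are cells with 3 or more macrophage or monocyte UMIs, open diamonds are cells with 3 or more MHC class II UMIs, and bars are 95% exact Poisson intervals. Tertiles of replicates 3 and 4 lie above all those of replicates 1 and 2, and in replicate 4 the marked cells lie above the tertiles for Rbm3 (212 and 236 CPM) but not for Cirbp.

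Although the 2 genes moved together over libraries, they did not vary together over cells. At 1000 UMIs the Pearson correlation of Cirbp and Rbm3, on log-transformed counts, was 0.0116, -0.00300, -0.00945 and -0.00550 in replicates 1 to 4. It averaged -0.00159 ± 0.00917 (SD, n = 4), and -0.0177 when the cells were thinned with another random seed. Cells that held both transcripts numbered 16, 16, 32 and 45, where independence gives 13.6, 16.8, 34.3 and 47.3. Over all libraries this was 109 cells against 112, a ratio of 0.974 (95% interval 0.799 to 1.17). With all UMIs, 700 cells held both against 722 expected from depth and level, a ratio of 0.970 (0.899 to 1.04), which leaves room for no more than a slight excess.

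The same measure was taken for 5 pairs of genes that are known to be induced together, picked after the data were seen, and it was high in 2 of them and near 0 in most libraries of the others. Ifit3 and Isg15, both induced by interferon, had correlations of 0.325, 0.363, 0.332 and 0.266, and Cd74 and H2-Aa, of MHC class II, had 0.751, 0.672, 0.788 and 0.798. The immediate early genes Fos and Egr1 had -0.00465, -0.00796, -0.00663 and 0.0865. The chaperone genes Hspa1a and Dnajb1 had -0.00166, -0.0192, 0.00816 and 0.0305, and Hsp90aa1 and Hsph1 had 0.00640, 0.00477, 0.0248 and 0.00210. The members were found in 9.11% and 9.46% of cells on average at this depth, and several of these genes in fewer. Fos and Egr1 were found in 3.23% and 2.73%, Hspa1a in 0.733% and Hsph1 in 1.59%, but Ifit3 and Isg15 also in only 0.886% and 1.54%. A value near 0 therefore also occurs in pairs that share an inducer. Whether these pairs were induced in the cells studied was not tested.

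Of 1460 genes found in at least 10% of thinned cells, 188 had a correlation with Cirbp of the same sign in all 4 libraries and 190 with Rbm3. These are 12.9% and 13.01% of the genes, near the 12.5% that signs independent between libraries would give. The mean correlations reached from -0.0269 to 0.0315 for Cirbp and from -0.0321 to 0.0335 for Rbm3. Such values are weak and no finding by themselves, and the genes at either end are named only as a description. Among genes of 1 sign in all libraries, the 5 highest for Cirbp were Vasp (0.0292), Psmd11 (0.0287), Sdf2l1 (0.0242), Ostc (0.0226) and Eif3e (0.0224), and the lowest included C3ar1 (-0.0269), Bcl2a1b (-0.0252), Frmd4b (-0.0233) and Fam105a (-0.0232). Vasp acts on actin filaments, Psmd11 is a proteasome subunit, and C3ar1 is the receptor of complement C3a. For Rbm3 the 5 highest were Rps13 (0.0335), Mapk3 (0.0333), Set (0.0280), Cstb (0.0271) and Evl (0.0252), and the 5 lowest were Hmox2 (-0.0321), St3gal5 (-0.0284), Il17ra (-0.0279), Cst3 (-0.0279) and Itm2c (-0.0236). Rps13 is a ribosomal protein, and Cst3 encodes cystatin C, which nearly every microglial cell makes.

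Against summed lists the correlations were of the same small size. With all ribosomal protein genes Rbm3 had -0.00421, 0.0234, 0.0639 and 0.0398 in replicates 1 to 4, and Cirbp had 0.00345, 0.00113, -0.0203 and -0.00150. With the exAM list, Cirbp had 0.0159, 0.0205, 0.000260 and 0.000667, and Rbm3 had 0.0121, -0.0187, 0.000486 and -0.000615. With the microglial markers, Cirbp had 0.0474, 0.0495, 0.00827 and 0.00980, and Rbm3 had 0.0256, -0.0476, -0.0485 and -0.0311. With the HSF1 targets, Cirbp had -0.0243, -0.00419, 0.0339 and 0.0265, and Rbm3 had -0.0118, 0.0105, 0.0393 and 0.0118. Cirbp was thus positive with the exAM and microglial lists in 4 of 4 libraries, though the exAM values of replicates 3 and 4 were only 0.000260 and 0.000667. The sign of each other pairing differed between libraries. Signs independent between libraries would agree in 12.5% of pairings, so this is a description only.

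**Figure D4:**
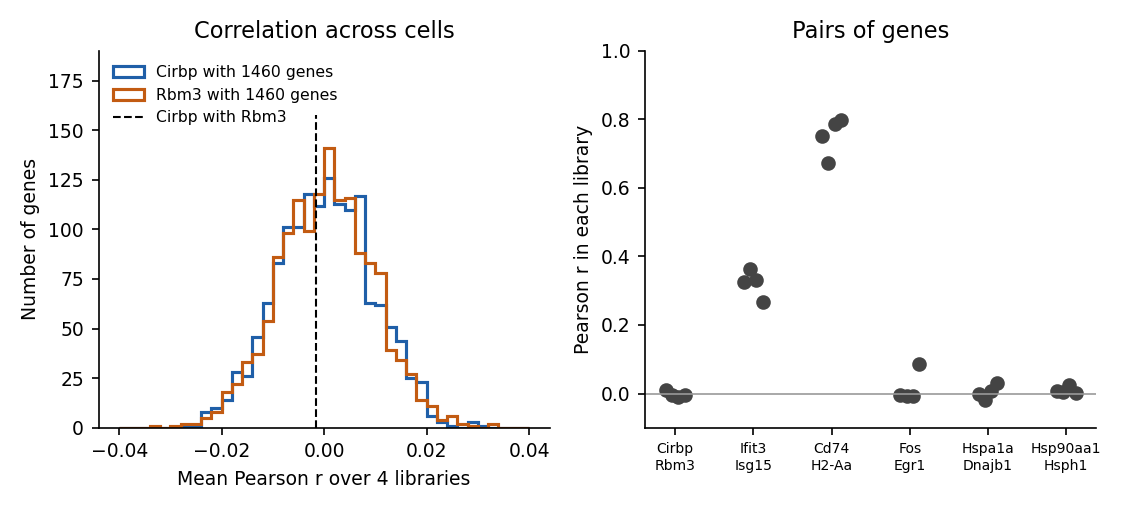
Left, the number of genes (of 1460) by their mean Pearson correlation with Cirbp (blue) or Rbm3 (orange) over the 4 libraries, with the correlation of the 2 members with each other dashed (-0.00159). Right, the correlation in each library for the 2 members and for 5 pairs of genes known to be induced together. Ifit3 with Isg15 and Cd74 with H2-Aa lie between 0.266 and 0.798, and the other 3 pairs lie near 0 like the members, apart from Fos with Egr1 in replicate 4 (0.0865).

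The pattern of each member over the 4 libraries was next compared with that of other genes. By the root mean square difference of centred log2(CPM + 1) values among the 7656 genes, the nearest to Cirbp were Klrd1 (0.09), Rbm3 (0.09), Per1 (0.11), Ccdc122 (0.11) and Lrrc8a (0.12). The nearest to Rbm3 were Per1 (0.05), Itpripl1 (0.05), Olfml2b (0.06), Lrrc8a (0.07) and Impact (0.08), with Cirbp in place 8 (0.09). Per1, a clock gene that also answers to stress hormones, stood at 8.50, 8.52, 14.0 and 16.9 CPM in replicates 1 to 4. Lrrc8a, of the volume-regulated anion channel, stood at 29.8, 27.6, 46.2 and 59.9 CPM, and Klrd1, a lectin receptor gene, at 6.80, 7.90, 12.3 and 14.6 CPM. Nearness over 4 values describes these libraries and no more.

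The partners of the proteins were steadier than the members. Of the receptors of secreted CIRP, Tlr4 stood at 46.6, 37.5, 44.5 and 59.6 CPM in replicates 1 to 4. Ly96, which encodes MD-2, stood at 127, 128, 129 and 111 CPM, and here the range test set replicate 4 apart on the low side (ratio 0.908). Trem1 had no UMI in replicates 1 and 3 and at most 0.266 CPM in the others. Of the 2 receptor genes at 10 CPM or more, 1 had a library apart, against 4.62% of all genes.

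Transcripts reported as targets of CIRP or RBM3 showed no shared movement. Rtn3 (reticulon) had a mean of 224 ± 2.49 CPM, Txn1 (thioredoxin) 82.6 ± 3.63 CPM, Rpa2 (replication protein) 18.7 ± 2.71 CPM and Clock 43.5 ± 3.16 CPM (SD, n = 4). Of the 4, 0 had a library apart, against 4.62% of all genes. Genes for the handling of the proteins were as even. In both lists the median SD was 0.08 on the log2 scale, against 0.11 over all genes. Of the 8 handling genes, 0 were apart, which so short a list can give at the share of all genes. They were the import receptor Tnpo1 (27.9 ± 1.69 CPM), the arginine methyltransferase Prmt1 (89.2 ± 7.54 CPM), the kinases Gsk3b (110.4 ± 5.34 CPM) and Csnk2a1 (102 ± 5.46 CPM), and the stress granule genes G3bp1 (142 ± 10.97 CPM), G3bp2 (169 ± 4.13 CPM), Tia1 (141 ± 7.27 CPM) and Tial1 (70.2 ± 4.54 CPM). Prmt1 was lowest in replicate 1 (79.8 CPM) and highest in replicate 4 (98.2 CPM).

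The transcription factors of cold and heat were mixed, and each varied less than the members on the log2 scale. Sp3 stood at 40.8, 39.1, 44.3 and 46.7 CPM in replicates 1 to 4, so it was higher in replicates 3 and 4. Hsf2, under 10 CPM, had the same order, at 5.95, 5.06, 7.70 and 8.67 CPM. Sp1 was highest in replicate 1 and Hsf1 in replicate 3. Sp1 had a mean of 12.5 ± 1.08 CPM, Sp3 42.7 ± 3.396 CPM, Hsf1 26.2 ± 0.721 CPM and Hsf2 6.85 ± 1.64 CPM (SD, n = 4). Of the 3 at 10 CPM or more, 0 had a library apart, against 4.62% of all genes.

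The targets of HSF1, chaperones that prevent or repair misfolded proteins, stood nearly in the reverse order of the members. Of 12 measured at 10 CPM or more among 15 listed, 9 were highest in replicate 1, as were 21.6% of all genes, and the other 3 in replicate 2. In replicate 4, where both members peaked, 10 of the 12 were lowest, against 23.2% of all genes, and the other 2 were lowest in replicate 3. These counts were the same under each of the 4 scalings. Hspa8, the constitutive HSP70, stood at 2200.3, 2299.9, 1635 and 1502 CPM in replicates 1 to 4, and Hsp90ab1, the constitutive HSP90, at 1092, 1064, 703 and 680.3 CPM. Stip1, a co-chaperone between them, stood at 71.7, 68.4, 49.5 and 42.0 CPM, and Hsph1 at 24.8, 16.4, 13.9 and 10.7 CPM. For these 4 genes replicates 1 and 2 were above replicates 3 and 4. For none of the 12 did the range test set a library apart, against 4.62% of all genes. Their median SD was 0.28 on the log2 scale, against 0.11 over all genes. Hspa1a and Hspa1b, the inducible HSP70 pair with near-identical sequence, had means under 10 CPM and were highest in replicate 1, at 19.8 and 2.13 CPM. Hspb1, the remaining target under 10 CPM, was highest in replicate 4. It stood at 1.13, 0.976, 0.514 and 2.00 CPM in replicates 1 to 4, from 40 UMIs in all.

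Splicing regulators linked to temperature, the kinases that phosphorylate SR proteins and the SR proteins themselves, followed the members in part. All 18 listed were measured, 11 of them highest in replicate 4, against 31.8% of all genes, and 10 under TMM or DESeq2 size factors. The 3 shown here are those with the largest SD of the list. Srsf5 stood at 259.8, 254.6, 323 and 414 CPM in replicates 1 to 4, Srsf2 at 225, 219, 269.6 and 311 CPM, and Tra2b at 215, 213, 251 and 291 CPM. Another 6 (Clk1, Clk4, Srpk1, Srpk2, Srsf1 and Tra2a) were highest in replicate 1, against 21.6% of all genes, such as the kinase Clk1 at 202.1, 168, 187 and 177 CPM. No gene of the list had a library apart, against 4.62% of all genes, and its median SD of 0.11 equalled that of all genes.

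Of 18 hnRNP relatives, which like the members carry RNA recognition motifs or related domains, 10 were highest in replicate 4. The share of all genes was the same 31.8%. With TMM the number was 8 and with DESeq2 size factors 7, the latter near the share of all genes. Another 6 were highest in replicate 3, against 26.5% of all genes. Of the 18, 9 were lowest in replicate 1 and 7 in replicate 2, against 28.6% and 28.4% of all genes. With DESeq2 size factors these numbers were 7, 8 and 7. Hnrnpl was the 1 of 18 with a library apart, against 4.62% of all genes. It stood at 107 CPM in replicate 1, below the 119 to 122 CPM of the others (ratio 0.832). The closest to the members in build, Rbmx and Rbmxl1, stood at 44.5, 39.7, 51.2 and 48.7 CPM and at 83.9, 85.6, 95.2 and 92.8 CPM. Their SD on the log2 scale was 0.16 and 0.09, several times less than that of Cirbp and Rbm3.

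**Figure D5:**
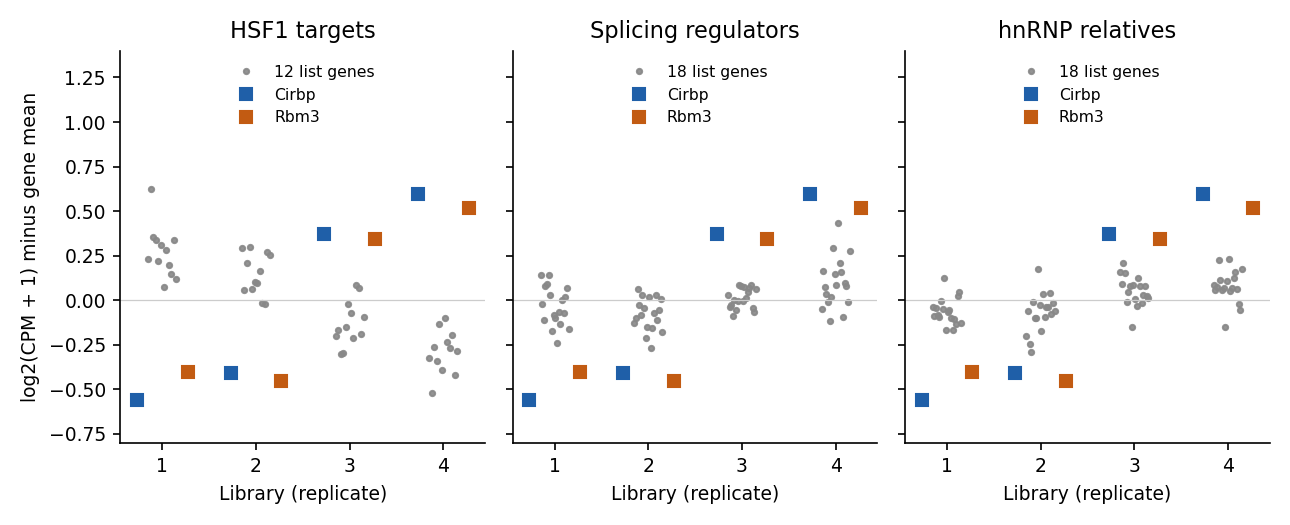
Level of each gene as log2(CPM + 1) minus its mean over the 4 libraries, for HSF1 targets (12 genes, left), splicing regulators (18, middle) and hnRNP relatives (18, right) in grey, with Cirbp (blue squares) and Rbm3 (orange squares) in each panel. The members lie lowest in replicates 1 and 2 and highest in replicates 3 and 4, and the HSF1 targets mostly lie the other way. The other lists each have a smaller median SD (0.11 against 0.28), but Srsf5, Srsf2 and Tra2b also lie higher in replicates 3 and 4.

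Of 16 clock genes, 6 reached 10 CPM and none had a library apart, against 4.62% of all genes. Of these 6, 2 were highest in replicate 4, against 31.8% of all genes, and 4 were lowest there, against 23.2%. The 2 highest were Per1 and Bhlhe41, the latter at 94.5, 78.0, 95.9 and 131 CPM in replicates 1 to 4. Dbp was among the 4 lowest, at 17.3, 18.1, 13.9 and 10.999 CPM. The labels used here give no hour of the day for any mouse.

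The sums of the exAM list and of the immediate early genes differed between libraries too. The exAM list summed to 2751, 2821, 2909 and 4638 CPM and the immediate early genes, first to respond to stimulation, to 1374, 1542, 1343 and 3126 CPM. Per the study, cells enriched for its exAM signature came almost only from Sample 4, the mouse whose sort was repeated. That mouse was not tied to a library from the labels. Both sums set replicate 4 apart, and the members were high in replicates 3 and 4. In replicate 3 both sums were near those of replicates 1 and 2. Hspa1a, Hspa1b and Hsp90aa1, also on the exAM list, were highest in replicate 1. The share of UMIs from ribosomal protein genes was 8.64%, 8.20%, 7.67% and 7.49%, so it was lowest where the members were highest. The part of temperature, handling, hour and animal in the levels of Cirbp and Rbm3 was not tested, and with 1 mouse in each library these cannot be told apart.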

How the data were processed

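The values were UMI counts per gene and cell in sorted brain myeloid cells of 4 mice. The authors deposited these counts as raw whole numbers from Cell Ranger (version 2.2.0 in the submitters' processing notes), aligned to mm10 (GRCm38) with a filtered Ensembl annotation, and Cell Ranger had already called the cells. Everything else was computed here, and the members and gene lists were chosen with earlier results of these data known. Replicates were numbered in accession order. Cells under 400 genes or over 10% mitochondrial UMIs were dropped, and doublets were not removed. Counts were summed per library and scaled to 1000000 UMIs (CPM), with no length correction because 3′ ends were counted. Cells were thinned at random, without replacement, to 1000 UMIs. Intervals are exact Poisson or Clopper-Pearson at 95%. Dixon's range test was run on log2(CPM + 1) for genes at a mean of 10 CPM or more, after being tested on simulated data. Named genes were the members, the 5 genes at each end of the correlations with a member that had 1 sign in all libraries, the 5 nearest library patterns, all genes of the short lists and, from other lists, up to 5 genes with a library apart. Further genes were shown as examples beyond this rule and were picked after their values were seen. They were Hspa8, Hsp90ab1, Stip1, Hsph1, Srsf5, Srsf2, Tra2b, Clk1, Clk4, Srpk1, Srpk2, Srsf1, Tra2a, Bhlhe41, Dbp, Rbmx, Rbmxl1, Hspa1a, Hspa1b and Hspb1. Some results that the rule covers are not reported here. Alternatives used edgeR 4.0.16 (TMM) and DESeq2 1.42.0 (size factors). The other tools were Python 3.11.15, scipy 1.17.1 and R 4.3.3.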

Additional observations from a re-analysis of the deposited data

Results flagged for a closer look

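By Dixon's range test 1 library stood apart in the following values of this group of 4, a result that chance gives in about 1 of 20 values. Replicate 4 was high for the immediate early genes Btg2 (ratio of gap to range 0.871), Dusp1 (0.866), Egr1 (0.831), Ier2 (0.878), Junb (0.893) and Zfp36 (0.830). Their levels in replicates 1 to 3 were 345 to 382, 4.79 to 6.50, 3.68 to 6.92, 17.8 to 22.0, 294 to 311 and 68.8 to 81.1 CPM, against 765, 38.8, 105, 95.8, 502 and 180.1 CPM in replicate 4. The summed exAM list (0.893) and the summed immediate early list (0.837) also had replicate 4 high.

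Ly96, of the receptor of secreted CIRP, was low in replicate 4 (0.908), and Hnrnpl was low in replicate 1 (0.832). Among markers, the microglial Gpr34 was high in replicate 3 (0.938, 2520.3 CPM against 2355 to 2365) and the monocyte gene Plac8 was low in replicate 2 (0.912, 2.57 CPM against 16.4 to 19.3).

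The ratio of observed to expected cells with both members at 1000 UMIs was 1.18 in replicate 1 and 0.933 to 0.955 in the others (0.910). It came from 16 cells, with an interval of 0.674 to 1.92, and with all UMIs the same library had 0.851.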

How the results depend on the processing

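Of 57 alternative values for 7 results, 47 stayed within the spread between replicates or within 1.5 times the count. Leaving out 1 of 4 libraries cannot move a mean by as much as their SD. Those alternatives were therefore bound to stay within it and do not speak for stability. Under every other alternative run, the mean level was 95.4 to 97.8 CPM for Cirbp and 103 to 106 CPM for Rbm3. The main values were 96.6 and 104 CPM. Their spread was 37.6 and 35.9 CPM, so staying within it was a weak criterion for these runs too. Leaving out 1 library gave 82.6 to 108 CPM and 91.5 to 115 CPM. Detection rose with depth by construction, to 17.6% (Cirbp) and 18.5% (Rbm3) at 2000 UMIs and to 21.3% and 22.3% without thinning, and leaving out 1 library gave 7.95 to 10.2% and 8.55 to 10.4%. The correlation of the 2 members over cells had a mean of -0.0177 with another random seed, and leaving out 1 library gave -0.00598 to 0.00103. Genes with 1 library apart numbered 2052 of 15581 without an expression filter and 148 of 3099 at a mean of 50 CPM or more, which test other numbers of genes. In the pathway lists 8 of 89 genes had a library apart, 3 with TMM, 5 with DESeq2 size factors and 5 of 64 at 50 CPM or more. Over all genes the share was 4.62%, and it was 4.98%, 4.82% and 4.78% in those settings. Hnrnpl, Egr1 and Zfp36 were not apart with TMM or DESeq2 size factors, Btg2 and Junb not with TMM, and Hnrnpl, Ly96 and Zfp36 not among cells with at least 1000 genes, for which the cause was not tested. The range test is not defined for 3 libraries, so the counts were not repeated with 1 library left out. No paired analysis was possible because there was 1 group. With 0.0604 to 0.138 UMIs of a member per thinned cell, depth limits the view of single cells more than that of library levels.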
